A study of Saccharomyces cerevisiae with 8 samples.

Results

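Leucine, isoleucine and valine are made in yeast by a set of enzymes encoded by LEU, ILV and BAT genes, and 10 of these genes are described here: ILV1, ILV2, ILV3, ILV5, LEU1, LEU2, LEU4, LEU9, BAT1 and BAT2. They were taken as all probe sets whose platform annotation gives one of these symbols, which found 12 probe sets for the 10 genes (3 for LEU2 and 1 for each of the others), among 9275 probe sets and 5656 named genes. A probe set is a group of short array probes that together report 1 transcript. All 12 were above background on all 8 arrays. Total RNA came from exponentially growing Saccharomyces cerevisiae of 3 genotypes, given in the labels as rnt1d, rnt1ts and wild type (WT), at growth temperatures of 26 C and 37 C. At 26 C there were 2 arrays of rnt1d, 1 of rnt1ts and 2 of WT, and at 37 C there was 1 array of each. The labels call the 2 arrays of a group biological replicates. RNT1 encodes the yeast RNase III, which cleaves hairpins in the precursors of ribosomal, small nuclear and small nucleolar RNAs. The sources used here do not give the alleles behind the 2 mutant names. The labels name complete medium with leucine or lacking it, and the design text names rich media. They do not say which array came from which medium, and leucine supply is a known regulator of several of these genes, so medium and strain cannot be told apart.

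The pathway begins with threonine, which Ilv1 deaminates on the way to isoleucine, and with pyruvate, which Ilv2 condenses on the way to valine. Ilv2, Ilv5 and Ilv3 act in series in mitochondria on both branches. Leucine leaves the valine branch at the isopropylmalate synthases Leu4 and Leu9, and Leu1 and Leu2 carry the intermediate on in the cytosol. The aminotransferases Bat1, in mitochondria, and Bat2, in the cytosol, exchange the amino group at the end. The intermediate alpha-isopropylmalate turns the transcription factor Leu3 into an activator, and Gcn4, the factor of general amino acid control, acts on many of the same promoters. LEU2 is also a common selectable marker of laboratory strains and plasmids, so its transcript can report a strain's marker as well as the pathway.

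Values below are normalised signals, meaning the deposited MAS5 intensities after quantile normalisation between arrays. The median deposited signal of an array ran from 31.0 to 69.5, so the arrays as deposited differed in scale. A log2 change is a difference of log2(signal + 16), and a call is an adjusted p under 0.05 from a limma fit of all 9275 probe sets with Benjamini-Hochberg adjustment. The spread in that fit came from the 2 groups with 2 arrays, and a lone array was assumed to vary like them. The RNT1 transcript, read first as a check of the labels, had signals of 1.31 and 2.03 in rnt1d at 26 C, both not above background, 39.8 in rnt1ts at 26 C, and 181 and 149 in WT at 26 C. At 37 C it was 71.4 on the array labelled rnt1d, 1.26 on that labelled rnt1ts (under the background bound), and 269 on the WT array. The 37 C values go against the labels, because RNT1 could be measured on the first of these arrays and not on the second. Over all probe sets, the array labelled rnt1ts at 37 C correlated with the rnt1d arrays at 26 C at r = 0.992 and 0.982, and with the rnt1ts array at 26 C at r = 0.956. The array labelled rnt1d at 37 C correlated with the rnt1ts array at 26 C at r = 0.962, and with the rnt1d arrays at 0.953 and 0.942. Between the 2 rnt1d arrays at 26 C r was 0.979. Comparisons within 26 C are therefore given first, and those that use the mutant arrays at 37 C are kept apart or marked. Without the 37 C arrays in the fit, the same 3 genes were called between rnt1d and WT, and the same single gene was called in each of the other comparisons at 26 C. The lone 37 C arrays add nothing to the estimate of spread, so leaving them out is a weak check.

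In rnt1d at 26 C, most of the pathway lay below WT. LEU2, LEU9 and BAT1 fell, none of the 10 genes rose, and 9 of 10 log2 changes were negative, with a median of -0.81 against -0.03 over all probe sets tested. Of all probe sets, 1.95% were called lower and 3.54% were called higher in the same comparison. Both rnt1d arrays lay below both WT arrays for 8 of the 10 genes, an order that 29.2% of all probe sets showed, and above both in 1 gene, the order of 25.1% of all probe sets. Of the 10 genes, 8 had an unadjusted p under 0.05, against 23.3% of all probe sets. These arrays measure RNA of whole cultures, so less of a transcript per cell and fewer cells that carry it cannot be told apart.

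**Figure D1:**
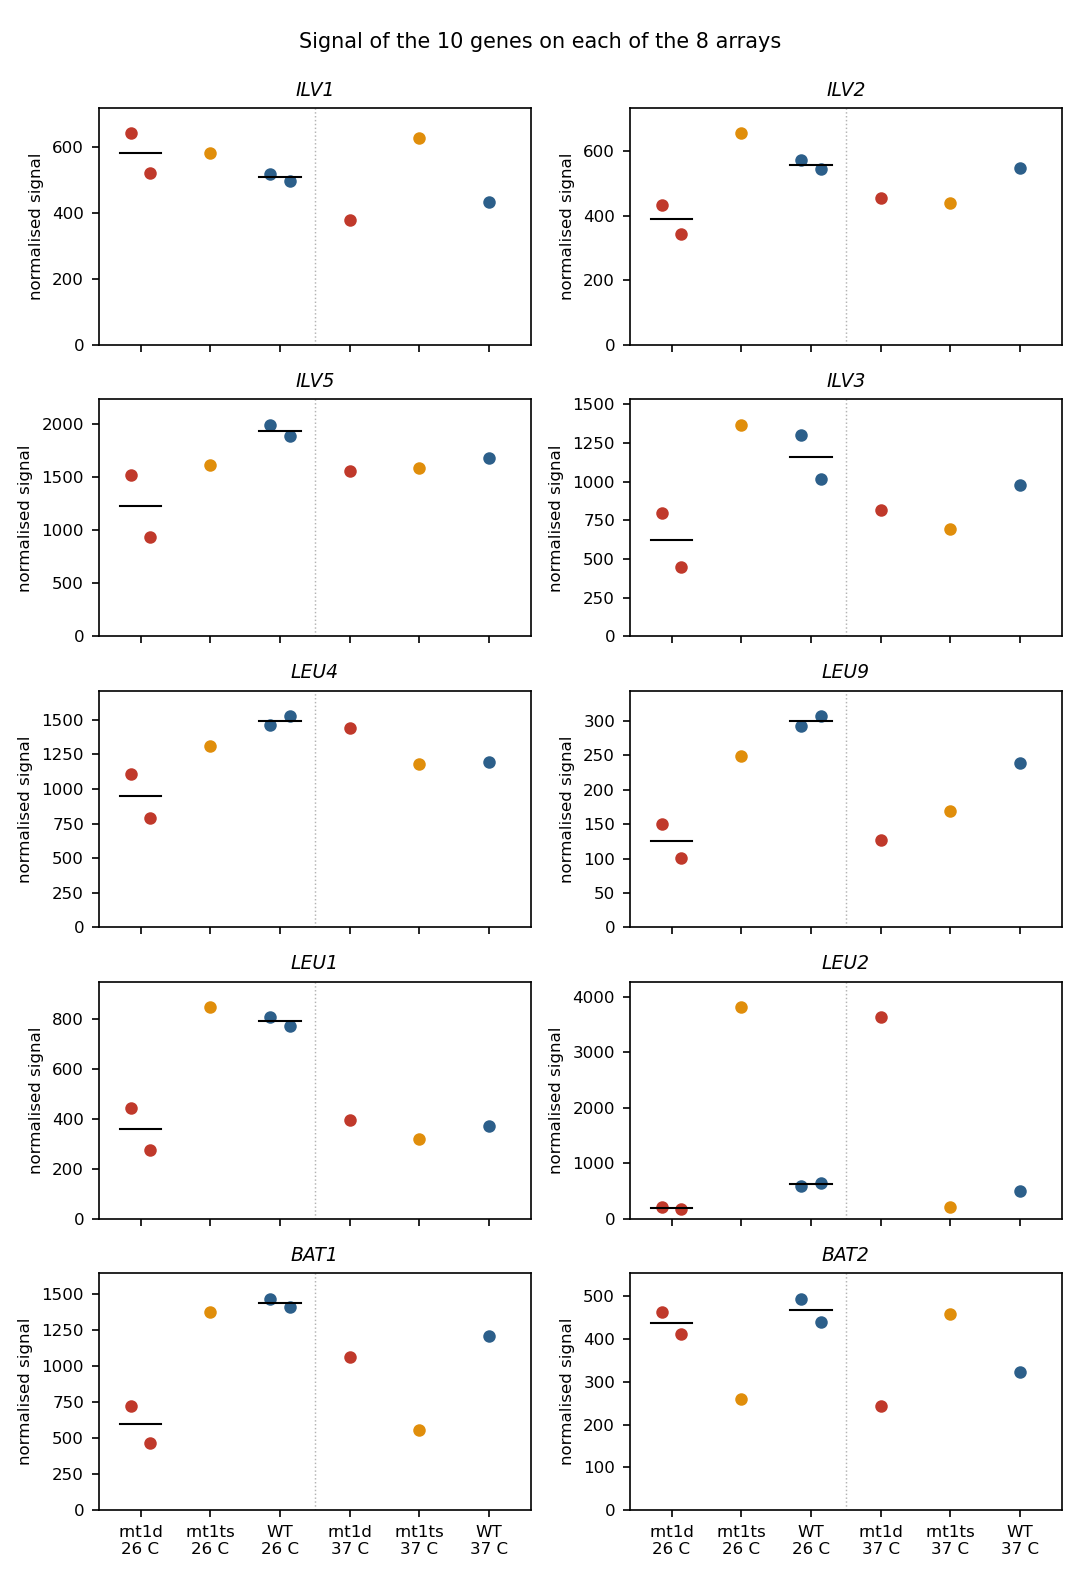
Normalised signal (linear axis from 0) of the 10 genes on each of the 8 arrays, with rnt1d, rnt1ts and WT at 26 C left of the dotted line and at 37 C right of it. Points are arrays and bars are means of 2 arrays. The 2 LEU2 signals of 3812 and 3630 stand above all others of that gene, and the rnt1d arrays at 26 C lie under both WT arrays in 8 panels.

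The leucine branch held 2 of the 3 calls. LEU2 (YCL018W), which encodes beta-isopropylmalate dehydrogenase, had signals of 211 and 168 in rnt1d, against 592 and 645 in WT. The groups did not overlap, and both rnt1d arrays were under every other 26 C array. The means were 189.6 ± 30.2 in rnt1d and 619 ± 37.9 in WT (SD, n = 2 each). The log2 change was -1.63 (SE 0.17, 95% interval -2.05 to -1.22, limma adjusted p = 0.00915), or 3.10-fold lower. LEU9 (YOR108W), the minor isopropylmalate synthase, had 149.6 and 101 in rnt1d, against 292 and 307 in WT. Its groups did not overlap either, and the log2 change was -1.18 (SE 0.21, 95% interval -1.69 to -0.66, limma adjusted p = 0.0379), or 2.26-fold lower. LEU4 (YNL104C), the major isopropylmalate synthase, had 1105 and 793 in rnt1d, against 1462 and 1526 in WT. The order was that of LEU9, but the log2 change of -0.66 (SE 0.20) was not called (limma adjusted p = 0.114). LEU4 and LEU9 are close paralogs whose probes may share targets, so the split of signal between them is uncertain.

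LEU1 (YGL009C) encodes isopropylmalate isomerase, an iron-sulfur enzyme. It had signals of 445 and 275 in rnt1d, against 809 and 775 in WT, with no overlap. The log2 change of -1.14 (SE 0.24, 95% interval -1.73 to -0.55, 2.21-fold lower) missed the threshold (limma adjusted p = 0.0532). It passed under 6 of 15 alternatives, with an adjusted p between 0.00684 and 0.635 over all 15.

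The shared steps of valine and isoleucine synthesis gave no call. ILV2 (YMR108W), the catalytic subunit of acetolactate synthase, had 434 and 344 in rnt1d, against 571 and 544 in WT (log2 change -0.51, SE 0.17, limma adjusted p = 0.147). ILV5 (YLR355C), acetohydroxyacid reductoisomerase, had 1518 and 934 in rnt1d, against 1992 and 1884 in WT (log2 change -0.69, SE 0.25, limma adjusted p = 0.167). ILV3 (YJR016C), dihydroxyacid dehydratase and the other iron-sulfur enzyme of the pathway, had 795 and 449 in rnt1d, against 1305 and 1016 in WT (log2 change -0.93, SE 0.29, limma adjusted p = 0.133). In each of the 3 genes both rnt1d arrays lay below both WT arrays, but the rnt1d arrays also differed from each other, with replicate 2 minus replicate 1 at -0.32 log2 units for ILV2, -0.69 for ILV5 and -0.80 for ILV3. ILV1 (YER086W), the threonine deaminase that commits carbon to isoleucine, went the other way, with 639 and 519 in rnt1d, against 517 and 496 in WT. Its log2 change of 0.18 (SE 0.16, 95% interval -0.22 to 0.58) was not called (limma adjusted p = 0.564), and it was -0.21 under median scaling.

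The 2 aminotransferase genes differed in where they stood. BAT1 (YHR208W), encoding the mitochondrial enzyme, had signals of 726 and 468 in rnt1d, against 1469.8 and 1411 in WT. The groups did not overlap, and the log2 change was -1.28 (SE 0.23, 95% interval -1.84 to -0.72, limma adjusted p = 0.0379), or 2.43-fold lower. BAT2 (YJR148W), encoding the cytosolic enzyme, had 463 and 412 in rnt1d, against 495 and 439.9 in WT. Here the groups overlapped, with a log2 change of -0.09 (SE 0.16, 95% interval -0.48 to 0.29, limma adjusted p = 0.763). The difference between the 2 genes' changes was not tested, and as paralogs they may share probe targets.

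The size of these changes differed between the 2 rnt1d arrays. Replicate 2 was lower than replicate 1 in all 10 genes and all 12 probe sets, against 49.1% of all probe sets. Measured from the WT mean, LEU1 stood at log2 values of -0.81 in replicate 1 and -1.47 in replicate 2, BAT1 at -0.97 and -1.59, and ILV3 at -0.53 and -1.33. LEU2 was the most even of the called genes, at -1.48 and -1.78. Its call was lost without WT replicate 1 (limma adjusted p = 0.149), without WT replicate 2 (0.155) and on the deposited scale (0.2503), while its log2 change ran only from -2.01 to -1.43 over 15 alternatives. LEU9 was lost without WT replicate 1 or 2 (limma adjusted p = 0.257 each), without rnt1d replicate 2 (0.0954) and on the deposited scale (0.9998). BAT1 was lost under the same settings (limma adjusted p = 0.268, 0.245, 0.0710 and 0.430 in that order). Median scaling called 8 of the 10 genes, all lower, but it also moved the calls over all probe sets from mostly higher to mostly lower.

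**Figure D2:**
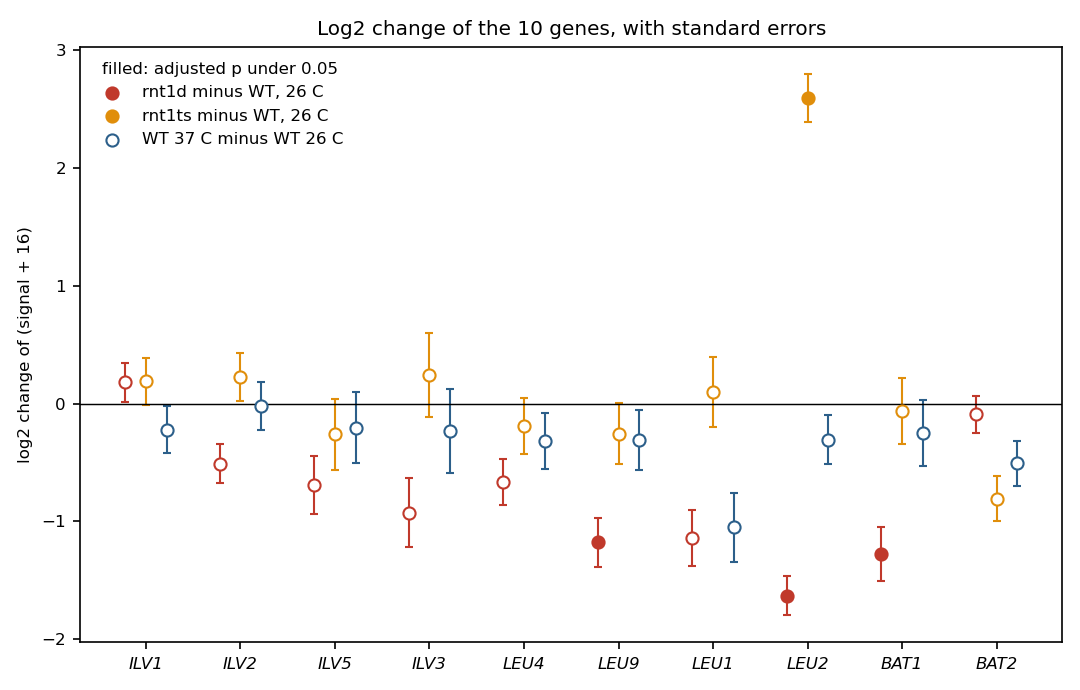
Log2 change of (signal + 16) of the 10 genes for rnt1d minus WT at 26 C, rnt1ts minus WT at 26 C, and WT at 37 C minus WT at 26 C. Points are fitted changes, bars are standard errors and filled points have an adjusted p under 0.05. LEU2 is at -1.63 in rnt1d and 2.59 in rnt1ts, and 9 of the 10 rnt1d points lie under 0.

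In rnt1ts at 26 C, LEU2 rose and no other gene of the pathway was called. LEU2 had a signal of 3812 on the single rnt1ts array, against 592 and 645 in WT, a log2 change of 2.59 (SE 0.20, 95% interval 2.09 to 3.10, limma adjusted p = 0.00744), or 6.04-fold higher. Of all probe sets, 0.582% were called higher and 0.205% lower. The median of the 10 genes was 0.018, against -0.005 over all probe sets. The call was lost without WT replicate 1 (limma adjusted p = 0.169) and without WT replicate 2 (0.151), with log2 changes of 2.52 and 2.66.

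The other leucine genes were not called on the rnt1ts array. LEU1 had 849 (log2 change 0.10, 95% interval -0.63 to 0.82, and -0.15 under median scaling), LEU4 1308 (-0.19, but 0.17 on the deposited scale) and LEU9 248 (-0.25, but 0.21 on the deposited scale). BAT1, with 1378, lay just under its WT arrays at a log2 change of -0.06, or 0.29 on the deposited scale. BAT2 had 259.8 on the rnt1ts array, against 495 and 439.9 in WT. That log2 change of -0.81 (SE 0.19, 95% interval -1.28 to -0.34) was not called (limma adjusted p = 0.265). LEU2 and BAT2 were the 2 genes with an unadjusted p under 0.05, which 8.96% of all probe sets had. ILV1, ILV2, ILV3 and ILV5 had log2 changes of 0.19, 0.23, 0.25 and -0.26, the last being 0.15 on the deposited scale.

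Set directly against rnt1ts at 26 C, rnt1d was lower in LEU2 by a log2 change of -4.23 (SE 0.20, limma adjusted p = 0.00166), or 18.7-fold. It was the single call among the 10 genes, in a comparison where 0.765% of all probe sets were called lower and 0.809% higher. In this comparison 7 of the 10 genes had an unadjusted p under 0.05, against 16.5% of all probe sets. The LEU2 call was kept under all 14 alternatives. LEU1, BAT1 and ILV3 had log2 changes of -1.24, -1.22 and -1.17, none of them called (limma adjusted p = 0.119, 0.111 and 0.193). BAT2 was the one gene with a positive value, 0.71 (SE 0.19, limma adjusted p = 0.148). This comparison shares its arrays with the 2 before it.

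Growth of WT at 37 C gave no call. In this comparison 0% of all probe sets (0 of 9275) passed by limma, and 894 (9.64%) had an unadjusted p under 0.05. The 10 genes had negative log2 changes throughout, with a median of -0.28 against -0.02 over all probe sets, though ILV2 (-0.02) was 0.16 on the deposited scale. LEU1 had a signal of 373 on the WT array at 37 C, against 809 and 775 in WT at 26 C, a log2 change of -1.05 (SE 0.29, 95% interval -1.78 to -0.33, limma adjusted p = 0.432). BAT2 had 324 at 37 C, against 495 and 439.9 at 26 C, a log2 change of -0.51 (SE 0.19, limma adjusted p = 0.507). These were the 2 genes with an unadjusted p under 0.05. LEU2 had 497 at 37 C, against 592 and 645 at 26 C (log2 change -0.31, limma adjusted p = 0.689), and this value was 0.27 in a model with strain and temperature as additive terms. That model takes the temperature term from the mutant arrays at 37 C too, as labelled. It also gave 0.07 for LEU4 (-0.32 otherwise) and 0.06 for ILV5 (-0.20 otherwise). The remaining genes lay between -0.31 and -0.22.

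Within 37 C each strain has 1 array, and the differences between them are given as values and were not tested. The mutant strains are named as labelled although RNT1 goes against it. On the array labelled rnt1d, LEU2 had a signal of 3630, against 497 on the WT array, a difference of 2.83 log2 units. The other 9 genes lay within 2-fold of WT there, from -0.84 for LEU9 (126, against 239 in WT) to 0.27 for LEU4 (1439, against 1194 in WT). Over all probe sets, 2.58% were at least 2-fold higher and 3.3% at least 2-fold lower on this array. On the array labelled rnt1ts, LEU2 had 203 and BAT1 had 554, against 497 and 1209 on the WT array, differences of -1.23 and -1.10 log2 units. These were the 2 genes at least 2-fold lower, as 3.32% of all probe sets were, and no gene was at least 2-fold higher, as 3.59% were. ILV1 and BAT2 were the 2 genes above WT, by 0.52 (625, against 432 in WT) and 0.48 (458, against 324 in WT). For 8 of the 10 genes the array labelled rnt1ts at 37 C was nearer to the mean of rnt1d at 26 C than to WT at 37 C, as were 72% of all probe sets. In tests of whether the difference from WT changed between 26 C and 37 C, LEU2 was the one call of the 10 genes in each mutant. For rnt1d it was called higher, as were 0.0647% of all probe sets (0% lower), and for rnt1ts lower, as were 0.194% (0.0539% higher).

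LEU2 had the widest range of the 10 genes, 22.7-fold between its highest and lowest arrays, while the other 9 ranged from 1.70-fold (ILV1) to 3.14-fold (BAT1). Its order over the groups was rnt1ts at 26 C (3812), the array labelled rnt1d at 37 C (3630), WT at 26 C (592 and 645), WT at 37 C (497), rnt1d at 26 C (211 and 168), with the array labelled rnt1ts at 37 C (203) between the 2 rnt1d replicates. The 2 highest arrays differed by 0.07 log2 units, less than the 0.30 between the rnt1d replicates or the 0.12 between the WT replicates. The array labelled rnt1ts at 37 C lay 0.10 above the mean of rnt1d at 26 C, also within the spread of the rnt1d replicates. These are values of the LEU2 probe set of highest mean. For the other 2 LEU2 probe sets, the array labelled rnt1d at 37 C minus rnt1ts at 26 C was -0.43 and -0.53. Their replicate differences, 2 minus 1, were -1.40 and -0.76 in rnt1d and -0.45 and -0.79 in WT.

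The 3 LEU2 probe sets were high on the same 2 arrays. The probe set with the suffix s had signals of 113 and 32.9 in rnt1d, 2542 in rnt1ts, and 212 and 151 in WT at 26 C, then 1879, 44.4 and 134 on the arrays labelled rnt1d, rnt1ts and WT at 37 C. The probe set with the suffix g had 52.7 and 24.6 in rnt1d, 1831 in rnt1ts, and 144 and 76.3 in WT at 26 C, then 1265, 45.2 and 86.8 in the same order at 37 C. Its rise in rnt1ts at 26 C was called too (log2 change 3.93, SE 0.44, limma adjusted p = 0.0260, 15.2-fold higher), whereas that of the other was not (3.71, SE 0.56, limma adjusted p = 0.0723). In rnt1d at 26 C neither was called (log2 changes -1.30 and -1.20, limma adjusted p = 0.164 and 0.117), although both rnt1d arrays lay below both WT arrays in each. These suffixes mark probe sets that may share probes with other sequences.

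Some mating-type transcripts were high or low on the same arrays as LEU2. MF(ALPHA)1, which encodes the pheromone of alpha cells, had signals of 21.7 and 26.2 in rnt1d, 2988 in rnt1ts, and 33.5 and 29.8 in WT at 26 C. At 37 C it was 1957 on the array labelled rnt1d, 23.2 on the array labelled rnt1ts and 33.0 in WT. MFA2, which encodes the pheromone of a cells, had 828 and 558 in rnt1d, 7.47 (not above background) in rnt1ts, and 1879 and 1501 in WT at 26 C, then 40.9, 921 and 1102 on the arrays labelled rnt1d, rnt1ts and WT at 37 C. The 2 arrays with high LEU2 were thus the 2 with high MF(ALPHA)1, low MFA2 and an RNT1 signal between the rnt1d and WT levels of 26 C. In rnt1ts at 26 C, all 5 alpha-specific genes on the list rose and 5 of 7 a-specific genes fell relative to WT, with list medians of 4.18 and -3.97. There 0.582% of all probe sets were called higher and 0.205% lower. In rnt1d at 26 C, 0 of 5 alpha-specific genes were called and 3 of 7 a-specific genes fell, with medians of -0.33 and -0.87. For that comparison the shares of all probe sets were 3.54% higher and 1.95% lower. MF(ALPHA)2 did not pair these 2 arrays, with 1112 in rnt1ts at 26 C and 13.4 on the array labelled rnt1d at 37 C. Nor did SAG1, at a log2 change of 3.22 in rnt1ts against WT at 26 C. Its rnt1d minus WT difference was 0.91 at 26 C and changed by -0.75 from 26 C to 37 C as labelled. That change was 3.80 for AFB1 and 1.44 for STE3, which stood at -0.45 and -0.33 at 26 C. A strain background that carries both mating type and marker alleles cannot be told apart from the RNT1 genotype here, and its part in the LEU2 signal was not tested.

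**Figure D3:**
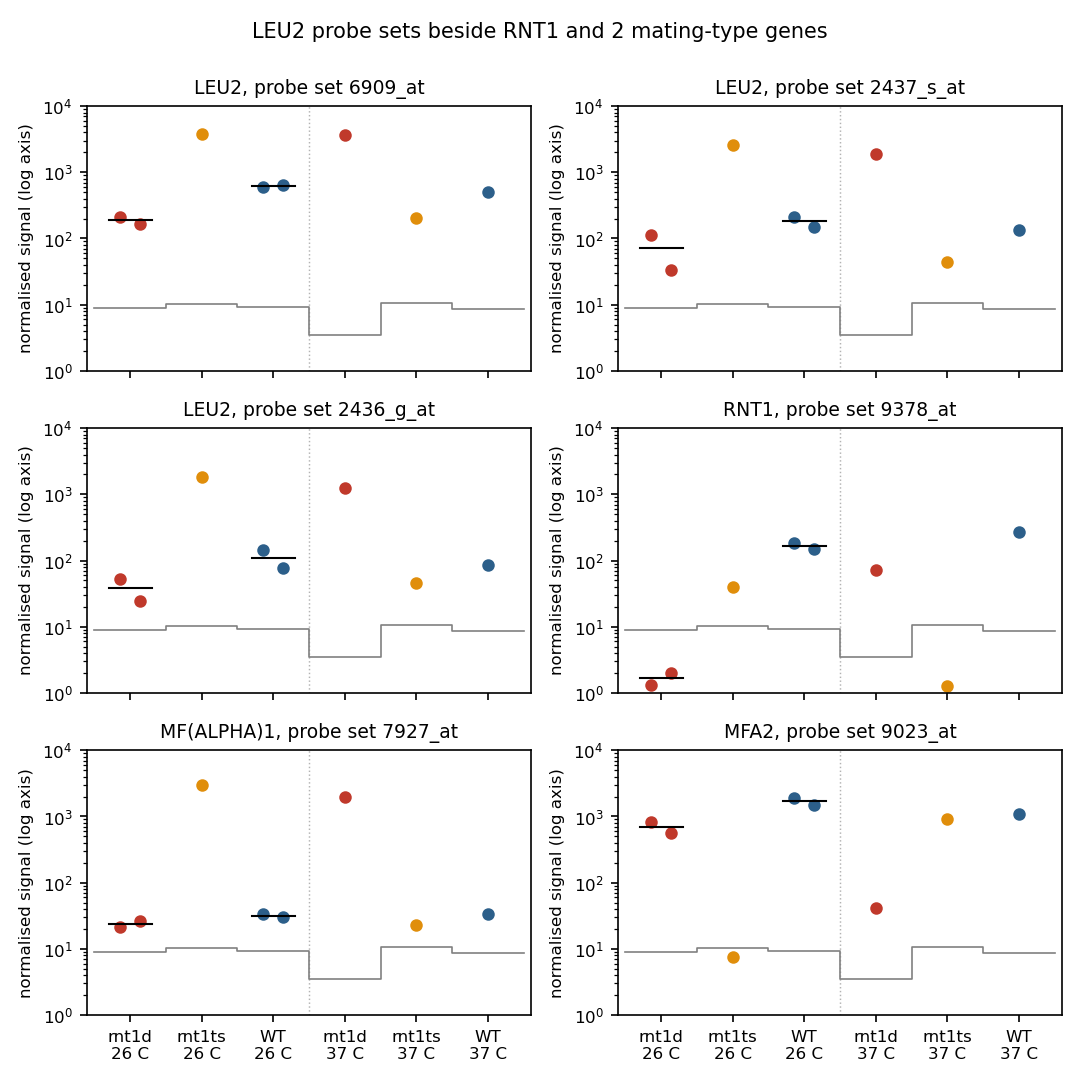
Normalised signal (log axis) of the 3 LEU2 probe sets, RNT1, MF(ALPHA)1 and MFA2 on each array, in groups of rnt1d, rnt1ts and WT at 26 C and then at 37 C. Points are arrays, bars are means of 2 arrays, and the grey line is the background bound of each group (3.48 to 10.7). The rnt1ts array at 26 C and the array labelled rnt1d at 37 C are the 2 highest for LEU2 and for MF(ALPHA)1.

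Genes that often serve as auxotrophic markers were read beside LEU2. Of 7, MET17 and LEU2 fell in rnt1d at 26 C and TRP1 rose, with a list median of -0.46. In that comparison 1.95% of all probe sets were called lower and 3.54% higher. MET17, the homocysteine and cysteine synthase, had signals of 391.7 and 317 in rnt1d, against 1914 and 2014 in WT (log2 change -2.43, SE 0.16, limma adjusted p = 0.00209). TRP1, an enzyme of tryptophan synthesis, had 149 and 98.7 in rnt1d, against 43.8 and 39.5 in WT (log2 change 1.26, SE 0.22, limma adjusted p = 0.0379). The MET17 call was lost without either WT replicate, and the TRP1 call without any 1 of the 4 arrays, on the deposited scale and with a pseudocount of 64. In rnt1ts at 26 C LEU2 was the one called marker, and TRP1, with 193 on that array, had a log2 change of 1.86 that was not called (limma adjusted p = 0.0664).

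The genes around the pathway were read from lists by role. For rnt1d against WT at 26 C, 1.95% of all probe sets were called lower and 3.54% higher, and 23.3% had an unadjusted p under 0.05. Among 7 regulators none was called in rnt1d at 26 C by limma (2 had an unadjusted p under 0.05), with a median log2 change of -0.09. LEU3 stood at -0.09 (limma adjusted p = 0.827) and ILV6, the regulatory subunit of acetolactate synthase, at -0.35 (0.230). The 2 with an unadjusted p under 0.05 were both higher in rnt1d, GCN4 at 0.73 (limma adjusted p = 0.0516) and GLN3 at 0.66 (0.0947). GCN4 activity is set mainly by translation, which arrays do not read. Among 12 transport genes 1 fell and 0 rose, with a median of -0.08. The gene was OAC1, a mitochondrial carrier of oxaloacetate that also moves alpha-isopropylmalate, with signals of 443 and 235 in rnt1d, against 1282 and 1197 in WT. Its groups did not overlap, and the log2 change was -1.89 (SE 0.29, limma adjusted p = 0.0284). It was lost without WT replicate 1, without WT replicate 2 and on the deposited scale (limma adjusted p up to 0.233 over 15 alternatives).

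Of 9 genes that supply aspartate and threonine, 1 fell and 1 rose in rnt1d at 26 C, with a median of -0.25. There 1.95% of all probe sets were called lower and 3.54% higher. HOM2, aspartate semialdehyde dehydrogenase, had 358 and 311 in rnt1d, against 883 and 923 in WT (log2 change -1.39, SE 0.15, limma adjusted p = 0.0105). CHA1, a catabolic serine and threonine deaminase, had 73.7 and 94.7 in rnt1d, against 5.18 and 19.1 in WT, of which 5.18 was not above background. Its log2 change of 1.87 (SE 0.29, limma adjusted p = 0.0279) depends on the pseudocount, being 2.92 with 1 and 0.96 with 64. The HOM2 call was lost without either WT replicate and on the deposited scale, and the CHA1 call was lost on that scale and without any 1 of the 4 arrays (limma adjusted p up to 0.426 and 0.175). Among 12 genes of branched-chain catabolism to fusel alcohols none was called by limma, with a median of 0.14. Of these, 2 had an unadjusted p under 0.05, against 23.3% of all probe sets. The smallest adjusted p was that of SFA1, an alcohol dehydrogenase (log2 change -0.84, limma adjusted p = 0.0505).

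Gcn4 targets of other amino acid pathways also lay mostly below WT in rnt1d at 26 C, where 6 of 29 measured genes fell and 0 rose, with a median of -0.51 against -0.03 over all probe sets. Of the 29, 20 had an unadjusted p under 0.05, against 23.3% of all probe sets. In that comparison 1.95% of all probe sets were called lower and 3.54% higher. The arginine genes ARG1 and ARG4, which encode argininosuccinate synthetase and lyase, had log2 changes of -1.99 and -1.65 (limma adjusted p = 0.00327 and 0.00576). TRP4, of tryptophan synthesis, stood at -1.002 and ARO4, at the entry to aromatic synthesis, at -0.83 (limma adjusted p = 0.0336 and 0.0330). ARG1 and ARG4 lost their calls without either WT replicate and on the deposited scale, and TRP4 and ARO4 on that scale and without any 1 of the 4 arrays. In rnt1ts at 26 C 1 of the 29 rose, ARG3, the ornithine carbamoyltransferase (log2 change 1.71, SE 0.21, limma adjusted p = 0.0350, but up to 0.402 on the deposited scale or without any 1 of the 4 replicate arrays), and none fell. Of 9 other iron-sulfur enzymes and assembly factors, BIO2, the biotin synthase, fell in rnt1d and none rose, with a list median of -0.55. In rnt1d 6 of these 9 had an unadjusted p under 0.05. BIO2 had 31.0 and 44.7 in rnt1d, against 125 and 152 in WT (log2 change -1.53, SE 0.21, limma adjusted p = 0.0202), and the call was lost on the deposited scale and without any 1 of the 4 arrays. No gene of the regulation, transport, threonine, fusel alcohol or iron-sulfur lists was called by limma in rnt1ts at 26 C. There 1, 2, 1, 2 and 3 of their genes in that order had an unadjusted p under 0.05, against 8.96% of all probe sets. Calls in rnt1ts at 26 C were 0.582% higher and 0.205% lower over all probe sets.

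**Figure D4:**
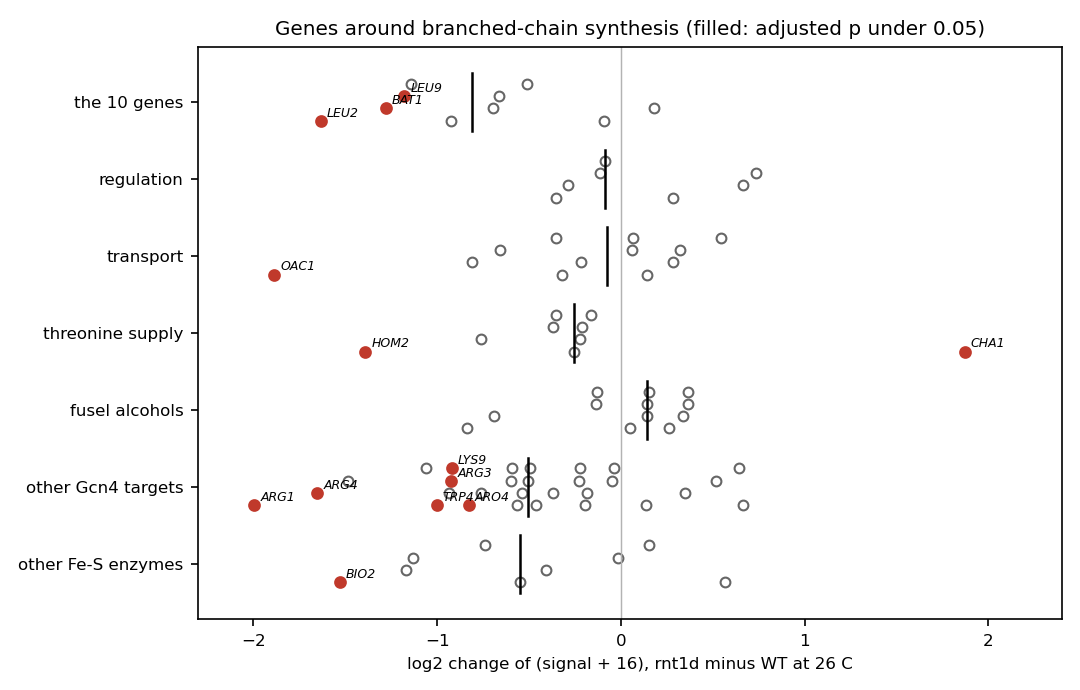
Log2 change of (signal + 16) for rnt1d minus WT at 26 C of each gene, by list. Points are genes, filled where the adjusted p was under 0.05, and bars are list medians. The medians of the 10 genes (-0.81), the other iron-sulfur enzymes (-0.55) and the other Gcn4 targets (-0.51) are the lowest of the 7 lists.

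Across the 8 arrays most of the 10 genes varied together, which describes arrays that share strains and scaling. ILV2 and ILV3 were the closest pair (Pearson r = 0.97 over 8 arrays), followed by BAT1 with ILV3 and LEU4 with ILV5 (r = 0.92 each). ILV1 and BAT2 stood outside this group: BAT2 correlated with BAT1 at r = -0.30, with LEU1 at -0.02 and with ILV5 at 0.06. LEU2 followed the group less closely, at r from 0.25 (with LEU9) to 0.67 (with BAT1). It correlated with BAT2 at r = -0.83 and with ILV1 at r = -0.48. Among the brighter probe sets (the 3960 compared with it), the genes most like LEU2 were ATP14 (r = 0.98), MRA1 (0.97) and MET13 (0.97). Without the 2 arrays of high LEU2 signal these were 0.93, 0.97 and 0.80. MET13, a methylenetetrahydrofolate reductase, had signals of 708 on the rnt1ts array at 26 C and 782 on the array labelled rnt1d at 37 C, against 158 and 141 in WT at 26 C. The genes most like BAT1 were RPL24B (r = 0.99), RPL31B and MEF2 (0.98 each). Those most like LEU1 were RPS0A and SSH1 (0.98 each) and SEC28 (0.97). A high r does not mean a change of like size. Over the 8 arrays RPL24B ran only from 3352 to 3857 and RPS0A from 1036 to 1344, whereas MEF2 ran from 29.7 to 93.7. The mean of the 10 genes was followed most closely by TKL1, a transketolase (r = 0.99), FAR1 (0.99) and SAM1 (0.98).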

How the data were processed

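The authors' deposited values are MAS5 intensities on a linear scale, 1 per probe set and array, per the submitters' processing notes. No source used here gives the version, scaling target or annotation release. The file holds 9335 probe sets on 8 arrays, all used in quantile normalization, and limma tested the 9275 left after 60 controls. Among them 6504 name 1 gene, 328 several and 2443 none, and the 5656 genes named all matched RefSeq's table of assembly R64.

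A signal was above background when it exceeded the highest of 19 non-yeast controls on its array (bounds 3.48 to 10.7). LEU2 is represented by the probe set of highest mean. Tests used log2(signal + 16) and limma 3.58.1 in R 4.3.3, as 6 group means over 8 arrays with a variance prior trended on signal, two-sided, with Benjamini-Hochberg adjustment over all probe sets. Only 2 residual degrees of freedom exist, so the number of arrays limits precision. The fit was tested on simulated data.

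The members, lists, normalization and alternatives were chosen with earlier results of these data known. Named were the 10 genes, RNT1 and the 3 best correlates of LEU2, LEU1, BAT1 and the mean of the 10. From each list, up to 4 called genes per direction were eligible, or the 3 of smallest p where none was called. Not every eligible gene is named in the text. SAG1 was named beyond this rule. LEU3 was added for its role after its values were seen. Alternatives changed scaling, controls, pseudocount, filter, variance trend, replicate block, arrays in the fit and probe set choice. Sequences are not shown.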

Additional observations from a re-analysis of the deposited data

Results flagged for a closer look

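LEU2 was the one gene of the 10 called when the labelled strain differences were compared between 37 C and 26 C. The rnt1d minus WT difference was 4.46 log2 units larger at 37 C than at 26 C (SE 0.29, limma adjusted p = 0.0155), in a comparison where 0.0647% of all probe sets were called higher. The rnt1ts minus WT difference changed by -3.82 (SE 0.31, limma adjusted p = 0.0151), where 0.194% of all probe sets were called lower. Both tests compare the mutant arrays as they are labelled, and the RNT1 signals at 37 C (71.4 on the array labelled rnt1d and 1.26 on that labelled rnt1ts) go against those labels, so no temperature effect is read from them. The first call was lost without WT replicate 1 (adjusted p = 0.284), WT replicate 2 (0.248), rnt1d replicate 1 (0.0577) or rnt1d replicate 2 (0.0613), and the second without WT replicate 1 (0.251) or WT replicate 2 (0.244). Neither of the other LEU2 probe sets was called in the rnt1d comparison (4.96 and 4.84, adjusted p = 0.155 and 0.0999) or in the rnt1ts comparison (-5.02 and -4.67, adjusted p = 0.1503 and 0.1005).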

How the results depend on the processing

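Of 791 recomputed values for single genes, 675 kept their direction and their side of the threshold, 92 lost a call, 13 gained one and 11 turned sign. The 675 include values of genes not called in the main fit, which had no call to lose. They therefore do not give the share of calls that held. On the deposited scale, which moved the median of all probe sets to between -0.39 and 0.30 log2 units (0.12 for rnt1d and 0.30 for rnt1ts against WT at 26 C), calls numbered 100 in place of 509 for rnt1d against WT, with 0 of the 10 genes in place of 3, 56 in place of 146 for rnt1d against rnt1ts, 14 in place of 0 for WT at 37 C, and 11 in place of 6 for the change of the rnt1d effect. Values that turned there were LEU4 (0.17), LEU9 (0.21), BAT1 (0.29) and ILV5 (0.15) for rnt1ts and ILV2 (0.16) for WT at 37 C. Median scaling split the rnt1d calls into 241 higher and 345 lower, in place of 328 and 181, called 8 of the 10 genes and turned ILV1 (-0.21) and, for rnt1ts, LEU1 (-0.15). It split the rnt1d against rnt1ts calls into 39 higher and 63 lower, and the deposited scale into 15 and 41, in place of 75 and 71. The deposited scale split the change of the rnt1d effect into 8 and 3 in place of 6 and 0. The causes were not tested.

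The change of the rnt1d effect had 11 calls when controls were left out of the normalization, 13 with a pseudocount of 1 and 15 with 64. The change of the rnt1ts effect had 38 with a pseudocount of 1 in place of 23, and WT at 37 C had 2 with 64. With probe sets above the 25th percentile of mean signal, calls were 900 for rnt1d, 113 for rnt1ts in place of 73, 376 for rnt1d against rnt1ts with 2 of the 10 genes in place of 1, 3 for WT at 37 C, and 48 and 76 for the effect changes. Above the 50th percentile they were 766, 337 with 2 of the 10 genes, 2, and 40 and 83, with rnt1ts within 1.5 times. Counting each of the 12 probe sets alone gave 2 calls for rnt1ts and 3 for rnt1d against rnt1ts. The additive model, which also uses the mutant arrays at 37 C as labelled, turned LEU2 (0.27), LEU4 (0.067) and ILV5 (0.055) for WT at 37 C.

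With the replicate number as a block, calls were 1425 for rnt1d with 7 of the 10 genes, 195 for rnt1ts, 644 for rnt1d against rnt1ts with 4 of the 10 genes, 11 for WT at 37 C, and 124 and 132 for the effect changes. The labels give only a shared number, and the deviations of same-numbered arrays correlated at r = 0.31, so no pairing is read from it.

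Leaving out 1 array leaves 1 residual degree of freedom. Calls then ran from 33 to 231 for rnt1d (0 to 4 of the 10 genes), 0 to 51 for rnt1ts (0 to 1), 10 to 45 for rnt1d against rnt1ts (1 to 1), 0 to 0 for WT at 37 C, 0 to 1 for the change of the rnt1d effect (0 to 0) and 0 to 20 for that of the rnt1ts effect (0 to 1). ILV2 for WT at 37 C (-0.02) was 0.012 without WT replicate 1 and -0.057 without WT replicate 2.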
